A study of Homo sapiens with 15 samples.

Results

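Messenger RNA of 40 p53 target genes was compared across 15 RNA-seq libraries of 12Z cells, an immortalised human line of endometriotic epithelial cells. The 40 members are a curated list of genes that p53 is known to activate, chosen by name with earlier results of these data known. Of these, 39 averaged 1 count or more per library and were tested. The files held 60617 gene identifiers, and 23184 genes passed the same filter. TNFRSF10C, which encodes a decoy receptor for the death ligand TRAIL, had 0 to 4 counts per library and was not tested.

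Every library came from 12Z cells that first received an siRNA pool and then, 24 h later, a transient pBabe plasmid. After 4 h without serum they were kept in insulin or vehicle for 24 h. There were 5 groups of 3 libraries, described by the study as independent experiments. Cells with siRNA against RSAD2 (siRSAD2), which encodes the antiviral enzyme viperin, made up 4 groups. Of these, 2 carried a PIK3CA H1047R plasmid, with 100 nM insulin (H1047R insulin cells) or vehicle (H1047R vehicle cells). The other 2 carried the empty plasmid, with 100 nM insulin (empty-vector insulin cells) or vehicle (empty-vector vehicle cells). The fifth group had a non-targeting siRNA pool, the empty plasmid and vehicle (non-targeting cells). PIK3CA H1047R is an activated form of the catalytic subunit of phosphoinositide 3-kinase. The study asked whether this mutation alters the response to insulin, and what part RSAD2 has in it. Insulin and H1047R were compared here only in cells that carried siRSAD2. A single pool was used for RSAD2 and a single pool for the control. Loss of RSAD2 and any other difference between the pools therefore cannot be told apart. The labels number the non-targeting libraries 4 to 6 and the siRSAD2 libraries of each group 1 to 3. What these numbers mark is not stated, so a difference between the sets of libraries and the siRNA cannot be told apart. The share of cells that took up the plasmid is not given in the sources used here, and in bulk RNA fewer cells that express a gene and less RNA per cell cannot be told apart.

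The p53 protein is a transcription factor that binds DNA as a tetramer and is held at a low level by MDM2, a ubiquitin ligase that is itself a p53 target. When MDM2 is blocked or overwhelmed, p53 activates genes for cell cycle arrest, cell death, DNA repair and metabolism, and the arrest gene product p21 leads to the repression of cell cycle genes through the DREAM complex. Phosphoinositide 3-kinase acts on this loop through the kinase AKT, which phosphorylates MDM2, and 12Z cells are immortalised with the large T antigen of simian virus 40, a protein that binds p53.

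The p53 response element consensus consists of 2 half-sites of 10 bases that p53 binds in tandem, and it reads the same on both strands. Matches were searched within 2500 bases on either side of the start of the canonical transcript (GENCODE 44, hg38). They had no spacer between the half-sites and at most 2 mismatches, none of them at the core C and G of each half-site. At least 1 match was found near 18 of the 40 members (45.0%), 20 matches in all, against 904 of the 23086 tested genes with a window (3.92%). By position, 5 matches overlapped an exon of at least 1 transcript, 11 lay in an intron in every transcript and 4 lay upstream of the gene. A match describes the sequence and is no evidence of binding in these cells. The 8 matches shown belong to members whose values recur in the results, each 5′ to 3′ on the strand of the gene, with capitals for bases that fit the consensus, lower case inside the site for mismatches and 5 flanking bases in lower case at each end.
MDM2: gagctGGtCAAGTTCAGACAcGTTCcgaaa
CDKN1A: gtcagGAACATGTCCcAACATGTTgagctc
BTG2: gggtcAcGCATGTTCAGGCATGCaTggaat
GDF15: attgccAtCTTGCCCAGACTTGTCTcgaac
EDA2R: tctgaGAACATGCCTGGACgTGTCCaacaa
ZMAT3: tcataAAACAAGTCCAGACATGCCTaggca
CCNG1: tgtgaGcACAAGCCCAGGCTAGTCCgaggc
PLK2: atgagAAACATGCCTGGACTTGCCCtgcac
The MDM2 match (chr12:68808923-68808942, plus strand) is centred 756 bases downstream of the transcript start, in an intron, and has 2 mismatches. The CDKN1A match (chr6:36676449-36676468, plus strand) is centred at -2256 and overlaps an exon of at least 1 transcript. The BTG2 match (chr1:203303642-203303661, plus strand) is centred at -1868, upstream of the gene. The GDF15 match (chr19:18385308-18385327, plus strand) is centred at -840, in an intron of the transcripts that span it. The EDA2R match (chrX:66638713-66638732, minus strand) is centred at 356 in an intron and has 1 mismatch, and so does the CCNG1 match (chr5:163437926-163437945, plus strand), centred at 340 in an intron. The matches of ZMAT3 (chr3:179070188-179070207, minus strand, centred at 1612 in an intron) and PLK2 (chr5:58462274-58462293, minus strand, centred at -2198, upstream) have 0 mismatches.

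Libraries held 16.1 to 39.7 M gene counts (median 24.3 M). RSAD2 averaged 0.837, 0.899, 0.331 and 0.326 CPM (counts per M gene counts) in the siRSAD2 groups, in the order given above, and 3.29 CPM in non-targeting cells, and PIK3CA averaged 163, 211, 79.2, 89.0 and 103 CPM, so both labels matched the counts. Of the epithelial markers, keratins KRT8, KRT18 and KRT19 were abundant (group means 428 to 1129 CPM), whereas CDH1 and EPCAM were near 0 (0.201 to 0.776 CPM) and the stromal collagen gene COL1A1 was at 2297 to 2662 CPM. Endothelial PECAM1 was at most 0.349 CPM. Empty-vector vehicle replicate 3 had 8.31% unmapped read pairs against 3.97 to 5.45% elsewhere, and empty-vector insulin replicate 3 had the fewest counts. The share of stranded counts on the forward strand was 6.11 to 6.50% in that library and in all 6 H1047R libraries and 5.77 to 5.90% in the other 8, so in vehicle H1047R and this difference in the libraries cannot be told apart.

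Across the members, the summed level was lowest with the non-targeting pool. The 39 members summed to 3900 to 3974 CPM in H1047R insulin cells, 3504 to 3656 CPM in H1047R vehicle cells, 4018 to 4162 CPM in empty-vector insulin cells, 3303 to 3413 CPM in empty-vector vehicle cells and 2590.4 to 2693 CPM in non-targeting cells, and no 2 groups overlapped. The group mean of non-targeting cells was the lowest of the 5 for 34 of the 39 members. The highest mean was in empty-vector insulin cells for 24 members, in H1047R insulin cells for 9, in H1047R vehicle cells for 4 and in non-targeting cells for 2 (CCNG1 and PLXNB2). Per kilobase of exon, and over all libraries, CDKN1A was the most abundant member (152 CPM per kb), followed by CCNG1 (93.2), while MDM2 was at 41.9, and SPATA18 was the least abundant (0.0645).

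To see what the RSAD2 pool did to the p53 targets, empty-vector vehicle cells were compared with non-targeting cells. Of the 39 members, 28 rose and 1 fell with siRSAD2 (edgeR adjusted p below 0.05). Over all genes tested, 9.82% rose and 9.72% fell (19.5% in all). CYFIP2 (3.11-fold), GDF15 (3.02-fold), BTG2 (2.70-fold), CDKN1A (2.28-fold) and MDM2 (2.17-fold) had the largest rises apart from the scarcely counted SPATA18, and CCNG1 was the member that fell. The median member differed by 0.41 on the log2 scale and the median of all genes by 0.017. The 3 empty-vector vehicle libraries lay above all 3 non-targeting libraries for 31 members and below them for 2, where 16.1% and 17.1% of all genes did so. By role, 10 of 11 death and survival genes, 6 of 6 metabolic genes and 5 of 6 arrest genes rose, against 1 of 5 feedback genes and 3 of 5 DNA repair genes. DESeq2 called 29 higher and 1 lower (FBXO22 was the further one), and 27 rose and 1 fell without empty-vector vehicle replicate 3 and empty-vector insulin replicate 3. With siRSAD2, 4 of 8 epithelial markers fell (summed 1909 to 2048 CPM against 2363 to 2397 CPM in non-targeting cells). Of 8 stromal markers 3 rose and 5 fell (summed 4051 to 4087 CPM against 3686 to 4074 CPM). Among markers of other cells, 1 of 5 endothelial markers rose (11.0 to 12.2 CPM against 7.33 to 9.28 CPM) and 1 of 5 measured immune markers rose (4.80 to 12.3 CPM against 4.35 to 6.18 CPM, CD3E being below the filter). Their part in the differences of the p53 targets was not tested.

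Insulin was then compared with vehicle within each plasmid background. In empty-vector cells 25 of the 39 members rose and 1 fell with insulin, where 2.1% of all genes rose and 4.19% fell (6.28% in all). MDM2 had the largest called rise (1.60-fold), followed by PHLDA3 (1.47-fold), TIGAR (1.45-fold) and TP53I3 (1.43-fold), and PLK2 fell (0.762-fold). The median member differed by 0.26 on the log2 scale and the median gene by 0.001, and the groups did not overlap for 28 members that were higher and 1 that was lower (9.28% and 9.6% of all genes). In H1047R cells 10 members rose and 1 fell, where 0.483% of all genes rose and 1.99% fell (2.47% in all). CDKN1A (1.34-fold) and MDM2 (1.28-fold) had the smallest adjusted p values among the 10, and PLK2 again fell (0.787-fold). The median member differed by 0.11 and the groups did not overlap for 20 members that were higher and 2 that were lower (8.83% and 10.5% of all genes). DESeq2 called 27 higher and 1 lower in empty-vector cells and 11 higher and 1 lower in H1047R cells, where it called 2.6% and 0.962% of all genes higher. Without empty-vector vehicle replicate 3 and empty-vector insulin replicate 3, 17 members rose and 1 fell in empty-vector cells, where 1.12% of all genes rose. With only the compared groups fitted, 15 rose in empty-vector cells, where 0.428% of all genes rose. The 10 members that did not pass in that fit were MDM4, CCNG1, TNFRSF10B, EDA2R, AEN, DDB2, ASCC3, TIGAR, KITLG and FBXO22 (adjusted p 0.0505 to 0.258). In H1047R cells the count that rose was 4 without H1047R vehicle replicate 1 or H1047R insulin replicate 3 and 6 without H1047R vehicle replicate 3 or H1047R insulin replicate 1 or 2.

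The 10 members that rose with insulin in H1047R cells were MDM2, CDKN1A, BTG2, RRM2B, SESN1, TIGAR, TP53I3, CMBL, GDF15 and KITLG. All 10 also rose with insulin in empty-vector cells, so the shared members were 10 of 10 in one background and 10 of 25 in the other. These comparisons have no library in common. Over the 39 members the insulin differences of the 2 backgrounds had a Pearson correlation of 0.756 and a Spearman correlation of 0.834, and 0.821 and 0.821 over 38 members without SPATA18, as a description across genes that share the same libraries within each background. The signed log2 difference with insulin was lower in H1047R cells for 32 of the 39 members, which include PLK3 (-0.23 in H1047R cells and -0.01 in empty-vector cells). That difference was tested as an interaction between the plasmid and the treatment, which 0 of the 39 members and 0.0% of all genes passed in edgeR. DESeq2 also called 0 members. At an unadjusted p below 0.05 there were 9 members, all with a negative interaction, where 3.19% of all genes were lower at that level. MDM2 had an interaction of -0.32 ± 0.070 (unadjusted p 8.84e-05, adjusted p 0.493 in edgeR), TP53INP1 of -0.36 ± 0.087 and MDM4 of -0.49 ± 0.14. Without the filter on low counts, MDM2 (adjusted p 0.00307) and TP53INP1 (adjusted p 0.0128) passed the test of the interaction in edgeR. In that fit 62 of all 34757 genes passed with a positive and 19 with a negative interaction.

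**Figure D1:**
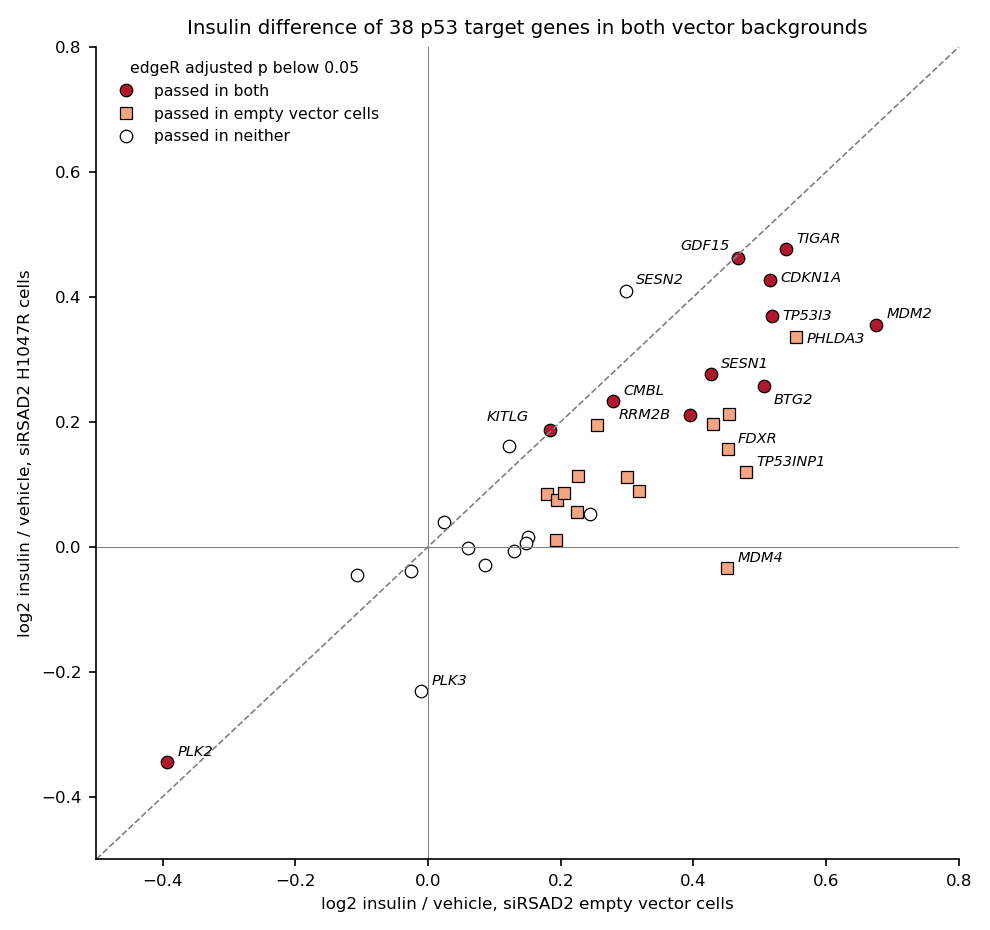
Log2 difference between insulin and vehicle in siRSAD2 empty-vector cells (x axis) and siRSAD2 H1047R cells (y axis) for 38 p53 target genes, with SPATA18 left out and the dashed line marking equal differences. Most points lie above 0 on both axes and below the dashed line, MDM2 is at 0.68 and 0.36, and PLK2 is the filled point that is negative on both axes.

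H1047R was compared with the empty plasmid in each treatment. In vehicle, 2 members rose with H1047R, MDM2 and MDM4, and the other 37 did not pass, where 0.621% of all genes rose and 0.742% fell (1.36% in all). DESeq2 called 3, with TNFRSF10B as the further one. At an unadjusted p below 0.05 there were 14 members, all higher with H1047R, where 6.04% of all genes were higher at that level. The groups did not overlap for 14 members that were higher and 2 that were lower (10.0% and 8.99% of all genes). In insulin, 0 members passed in edgeR and 0 in DESeq2, where edgeR called 0.22% of all genes higher and 0.0647% lower (0.285% in all). At an unadjusted p below 0.05 there were 8 members, 3 of them higher and 5 lower with H1047R. Of all genes, 5.55% were higher and 4.98% lower at that level. The groups did not overlap for 3 members that were higher and 6 that were lower (6.99% and 5.79% of all genes). The median member differed by 0.08 in vehicle and by -0.04 in insulin. With a term for the forward-strand share, MDM2 differed by 0.21 (adjusted p 0.940) and MDM4 by 0.11 (adjusted p 0.973) in vehicle, against 0.19 and 0.40 without it, and neither passed. This term leaves no empty-vector vehicle library in the class of the H1047R vehicle libraries. In insulin only replicate 3 of the empty-vector libraries is above 6% forward share. A fit within that class therefore cannot decide whether members differ with H1047R. Without empty-vector vehicle replicate 3 and empty-vector insulin replicate 3, 0 members rose in vehicle. In insulin TP53INP1 (adjusted p 0.0379) and BTG2 (adjusted p 0.0428) then fell with H1047R, where 307 of all 22943 genes rose and 267 fell. This fit leaves no empty-vector insulin library in the class of the H1047R libraries. H1047R and the difference in forward-strand share therefore cannot be told apart in it, in insulin as in vehicle.

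**Figure D2:**
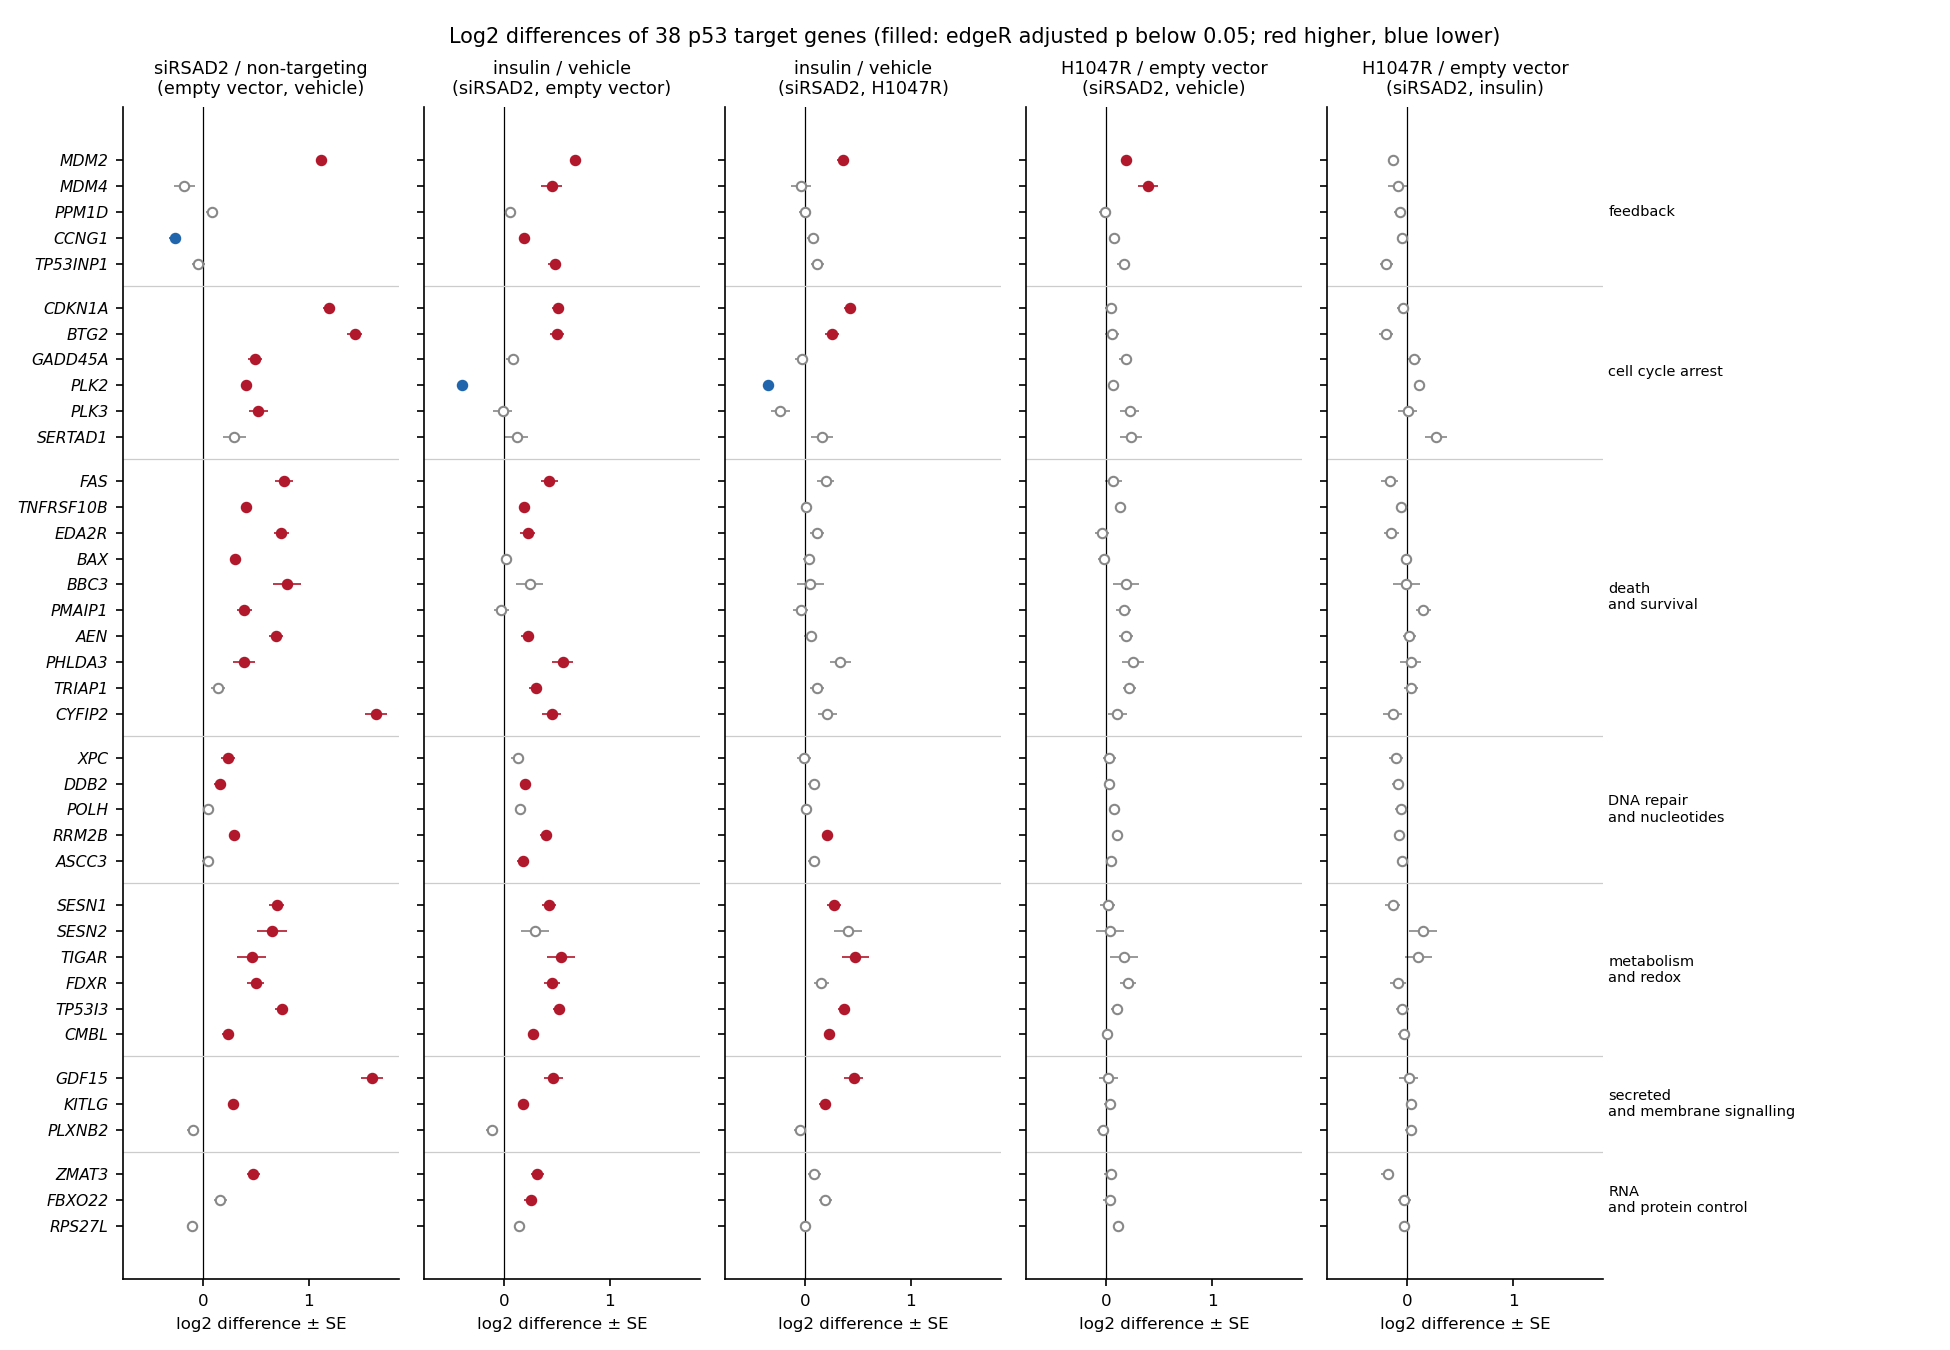
Log2 differences with their standard errors for 38 p53 target genes in 5 comparisons, grouped by role, with filled red points for members that rose, filled blue points for those that fell (edgeR adjusted p below 0.05) and open points for the rest; SPATA18 is left out. Filled red points number 27 in the siRNA panel, 25 and 10 in the insulin panels and 2 in the H1047R panel with vehicle.

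The feedback genes act back on p53 itself, and they parted in the siRNA comparison. MDM2 (ENSG00000135679.25, chr12:68808177-68845544, plus strand) encodes the ligase that degrades p53. The libraries held 427, 469 and 452 CPM in H1047R insulin cells, 345, 365 and 343 CPM in H1047R vehicle cells, 472, 515 and 486 CPM in empty-vector insulin cells, 332, 302 and 288 CPM in empty-vector vehicle cells and 146, 142 and 138 CPM in non-targeting cells. No 2 of the 5 groups overlapped, with non-targeting cells lowest and empty-vector insulin cells highest. MDM2 rose by 1.12 ± 0.051 on the log2 scale (± SE) with siRSAD2 (edgeR adjusted p 3.46e-16), by 0.68 ± 0.050 with insulin in empty-vector cells (adjusted p 7.16e-11) and by 0.36 ± 0.050 with insulin in H1047R cells (adjusted p 1.75e-05). With H1047R in vehicle its rise was 0.19 ± 0.050 (adjusted p 0.0470), a call that was lost without H1047R vehicle replicate 1, 2 or 3 or empty-vector vehicle replicate 2 or 3 (adjusted p 0.121 to 0.288). MDM4 (ENSG00000198625.13, chr1:204516379-204558120, plus strand) encodes a relative of MDM2 that blocks the activation domain of p53. Its level was 17.4, 18.8 and 17.4 CPM in H1047R insulin cells, 18.9, 17.2 and 18.9 CPM in H1047R vehicle cells, 16.6, 18.8 and 21.7 CPM in empty-vector insulin cells, 14.8, 14.1 and 12.5 CPM in empty-vector vehicle cells and 14.6, 17.4 and 14.7 CPM in non-targeting cells. Empty-vector vehicle cells had the lowest mean and overlapped with non-targeting cells. MDM4 rose with insulin in empty-vector cells (0.45 ± 0.097, adjusted p 0.00337) and with H1047R in vehicle (0.40 ± 0.096, adjusted p 0.0302), and the H1047R call was lost without H1047R vehicle replicate 1, 2 or 3 or empty-vector vehicle replicate 2 or 3 (adjusted p 0.0602 to 0.185). The insulin call was lost with only the compared groups fitted (adjusted p 0.0505) and without replicate 3 of both empty-vector groups (0.29, adjusted p 0.167). With siRSAD2 its difference was -0.17 ± 0.097 and did not pass.

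CCNG1 (ENSG00000113328.19, chr5:163437569-163446151, plus strand), a cyclin that recruits a phosphatase to MDM2, was the member that fell in the siRNA comparison. Its level was 271, 309.7 and 292 CPM in H1047R insulin cells, 264, 286 and 278 CPM in H1047R vehicle cells, 298, 299.6 and 301 CPM in empty-vector insulin cells, 268, 257 and 260.1 CPM in empty-vector vehicle cells and 294, 329 and 322 CPM in non-targeting cells. The 3 non-targeting libraries all lay above the 3 empty-vector vehicle libraries. CCNG1 fell by 0.27 ± 0.049 with siRSAD2 (adjusted p 1.46e-04) and rose by 0.19 ± 0.049 with insulin in empty-vector cells (adjusted p 0.0130), a call lost without empty-vector vehicle replicate 2 or 3 (adjusted p 0.0576 to 0.0748). TP53INP1 (ENSG00000164938.14, chr8:94925972-94949378, minus strand) encodes a protein that helps p53 to be phosphorylated under stress. The libraries held 75.7, 83.1 and 78.3 CPM in H1047R insulin cells, 72.3, 74.0 and 71.7 CPM in H1047R vehicle cells, 88.0, 96.8 and 85.8 CPM in empty-vector insulin cells, 70.0, 66.0 and 58.4 CPM in empty-vector vehicle cells and 63.8, 66.8 and 69.4 CPM in non-targeting cells. Empty-vector vehicle and non-targeting cells overlapped, and empty-vector insulin cells lay above every other library. TP53INP1 rose with insulin in empty-vector cells (0.48 ± 0.062, adjusted p 2.63e-06), whereas its differences with siRSAD2 (-0.04 ± 0.062) and with insulin in H1047R cells (0.12 ± 0.062) did not pass. PPM1D, a phosphatase that turns off p53, lay at 54.4 to 64.2 CPM over all 15 libraries and did not pass in any of the 6 comparisons.

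The arrest genes rose with siRSAD2 in 5 of 6 cases, and insulin moved them in both directions. CDKN1A (ENSG00000124762.13, chr6:36676460-36687337, plus strand) encodes the cyclin-dependent kinase inhibitor p21. Its level was 617, 579 and 604 CPM in H1047R insulin cells, 434, 480.3 and 424 CPM in H1047R vehicle cells, 687, 562 and 599 CPM in empty-vector insulin cells, 422, 452 and 419 CPM in empty-vector vehicle cells and 186, 198 and 184 CPM in non-targeting cells. The non-targeting libraries had less than all 12 siRSAD2 libraries, and both insulin groups lay above both vehicle groups. CDKN1A rose by 1.19 ± 0.058 with siRSAD2 (adjusted p 1.58e-15). Its rise was 0.51 ± 0.057 with insulin in empty-vector cells (adjusted p 1.80e-07) and 0.43 ± 0.057 with insulin in H1047R cells (adjusted p 7.31e-06). BTG2 (ENSG00000159388.6, chr1:203305491-203309602, plus strand) encodes an antiproliferative adaptor of the CCR4-NOT deadenylase. The libraries held 49.7, 48.2 and 53.2 CPM in H1047R insulin cells, 40.2, 44.5 and 41.8 CPM in H1047R vehicle cells, 60.7, 59.5 and 52.8 CPM in empty-vector insulin cells, 40.6, 43.0 and 38.6 CPM in empty-vector vehicle cells and 15.3, 15.6 and 14.2 CPM in non-targeting cells. Its non-targeting libraries were far below all others, and insulin and vehicle did not overlap in either background. BTG2 rose by 1.43 ± 0.073 with siRSAD2 (adjusted p 3.93e-15). The rise was 0.51 ± 0.066 with insulin in empty-vector cells (adjusted p 3.31e-06) and 0.26 ± 0.066 in H1047R cells (adjusted p 0.0271), where the call was lost without H1047R insulin replicate 1 or 3 or H1047R vehicle replicate 1 or 3 (adjusted p 0.0591 to 0.246).

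PLK2 (ENSG00000145632.15, chr5:58453982-58460139, minus strand), a polo-like kinase of the centrosome cycle and the stress response, was the member that fell with insulin. Its level was 116, 109 and 108 CPM in H1047R insulin cells, 144, 137 and 142 CPM in H1047R vehicle cells, 102, 102 and 102 CPM in empty-vector insulin cells, 141, 130.3 and 131 CPM in empty-vector vehicle cells and 99.3, 103 and 100.4 CPM in non-targeting cells. The vehicle libraries with siRSAD2 were the highest, and the insulin libraries of empty-vector cells lay within the range of non-targeting cells. PLK2 fell by 0.39 ± 0.048 with insulin in empty-vector cells (adjusted p 1.05e-06) and by 0.35 ± 0.048 in H1047R cells (adjusted p 1.42e-05), and rose by 0.41 ± 0.047 with siRSAD2 (adjusted p 1.02e-07). Its match to the response element, shown above, had no mismatch, as had that of ZMAT3. GADD45A, a stress sensor that binds cyclin-dependent kinase complexes, rose with siRSAD2 (0.49 ± 0.063, adjusted p 7.42e-07), with 40.7 to 42.2 CPM in empty-vector vehicle cells against 29.3 to 30.0 CPM in non-targeting cells. PLK3, another polo-like kinase, likewise rose with siRSAD2 (0.53 ± 0.092, adjusted p 7.64e-05), and its difference with insulin in H1047R cells was -0.23 ± 0.089 without passing. SERTAD1, a regulator of CDK4 and E2F, lay at 14.8 to 29.7 CPM and differed by 0.30 ± 0.11 with siRSAD2 without passing (edgeR adjusted p 0.0547). It rose under 6 alternatives, which were filterByExpr or no filter, unstranded counts, the compared groups alone, a term for the forward-strand share and both replicate 3 libraries of empty-vector cells left out (adjusted p 0.00600 to 0.0484).

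**Figure D3:**
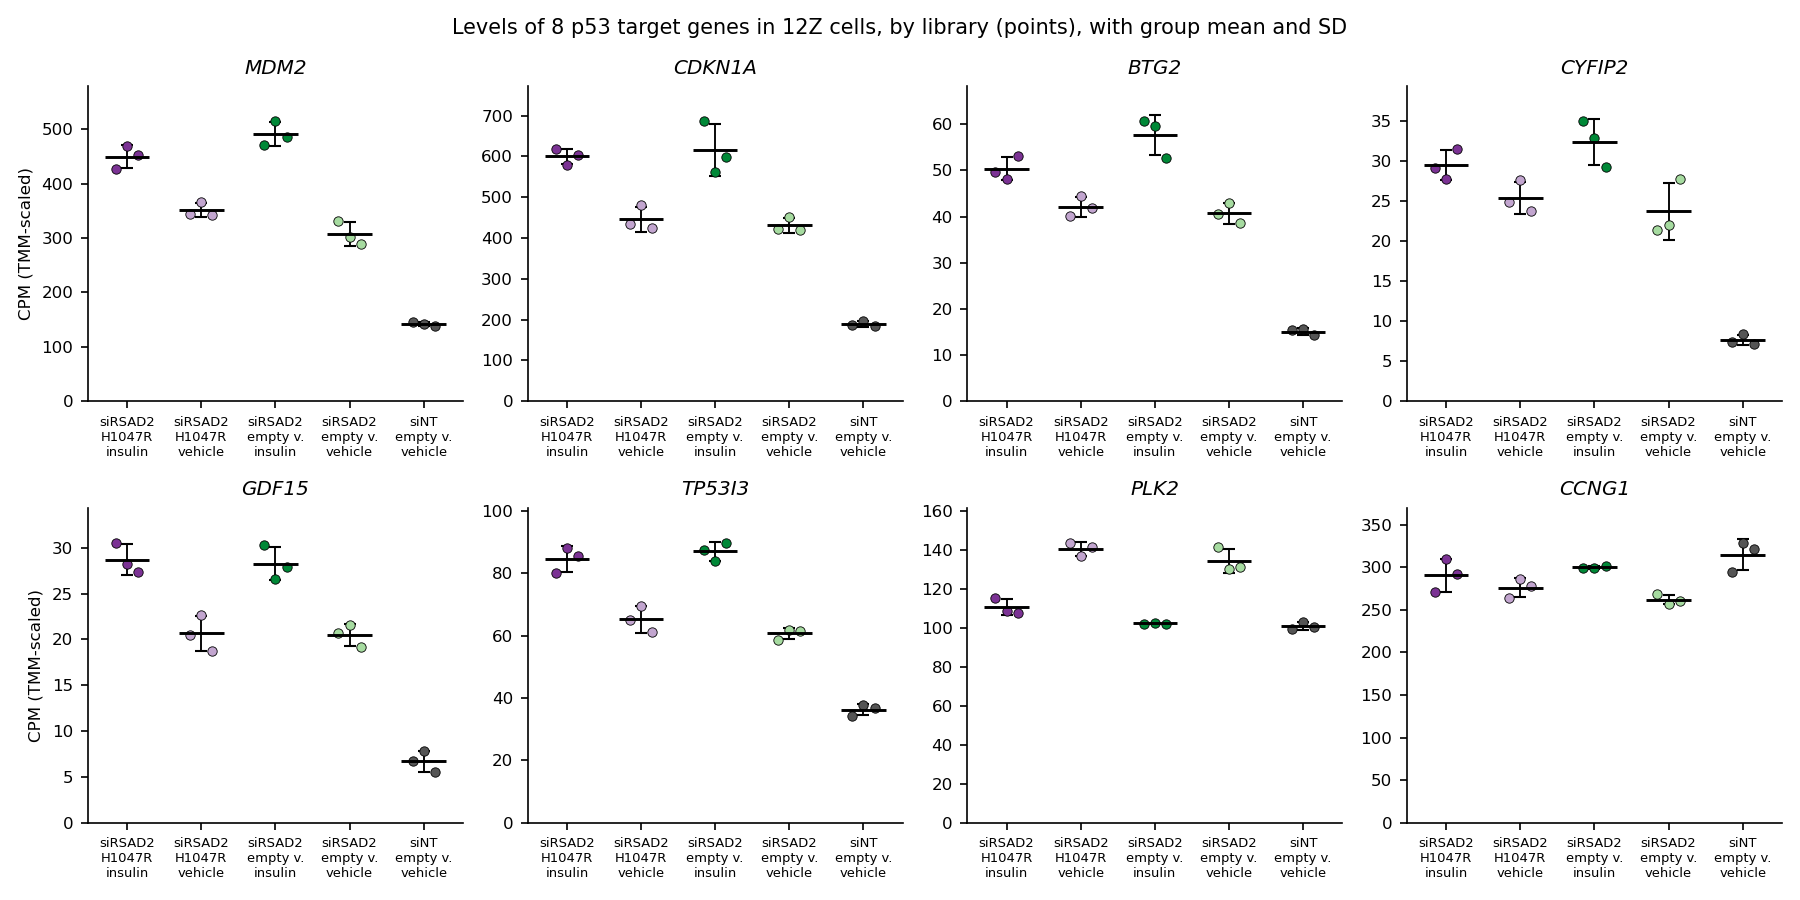
CPM of 8 p53 target genes in each library (points), with the mean and SD of each group of 3. MDM2, CDKN1A, BTG2, CYFIP2, GDF15 and TP53I3 are lowest in non-targeting cells at 142, 189, 15.1, 7.62, 6.72 and 36.3 CPM on average, PLK2 is lower with insulin than with vehicle in both backgrounds, and CCNG1 is lowest in empty-vector vehicle cells.

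Among the 11 measured genes of death and survival, 10 rose with siRSAD2 and 7 rose with insulin in the empty-vector background. Of all genes, 9.82% and 2.1% rose in these comparisons. In the H1047R background 0 of the 11 passed for insulin in edgeR and 0 in DESeq2. There edgeR called only 0.483% of all genes higher and 1.99% lower. At an unadjusted p below 0.05 there were 4 of the 11, against 10.8% of all genes in either direction, and PHLDA3 had the smallest adjusted p (0.0776). With only the 2 compared groups fitted, PHLDA3 (adjusted p 0.00897) and FAS (adjusted p 0.0482) rose with insulin in H1047R cells too. CYFIP2 (ENSG00000055163.20, chr5:157266079-157395595, plus strand) encodes a subunit of the WAVE actin regulator that p53 induces in apoptosis. Its level was 29.2, 27.8 and 31.5 CPM in H1047R insulin cells, 24.9, 27.6 and 23.7 CPM in H1047R vehicle cells, 35.01, 32.8 and 29.3 CPM in empty-vector insulin cells, 21.4, 22.0 and 27.8 CPM in empty-vector vehicle cells and 7.40, 8.34 and 7.12 CPM in non-targeting cells. Non-targeting libraries were at less than any other, and empty-vector vehicle replicate 3 was the highest of its group. CYFIP2 rose by 1.64 ± 0.10 with siRSAD2 (adjusted p 4.74e-13) and by 0.45 ± 0.090 with insulin in empty-vector cells (adjusted p 0.00147). EDA2R (ENSG00000131080.15, chrX:66595637-66639298, minus strand) encodes a receptor for ectodysplasin of the tumour necrosis factor receptor family. The libraries held 36.9, 45.7 and 39.5 CPM in H1047R insulin cells, 36.4, 36.8 and 39.4 CPM in H1047R vehicle cells, 43.9, 46.6 and 44.2 CPM in empty-vector insulin cells, 38.3, 38.7 and 38.2 CPM in empty-vector vehicle cells and 21.7, 23.8 and 23.6 CPM in non-targeting cells. The siRSAD2 groups lay close together, all above the non-targeting libraries. EDA2R rose by 0.74 ± 0.071 with siRSAD2 (adjusted p 3.10e-09) and by 0.23 ± 0.068 with insulin in empty-vector cells (adjusted p 0.0428), and the insulin call was lost without empty-vector insulin replicate 2 or 3 or empty-vector vehicle replicate 1, 2 or 3 (adjusted p 0.0819 to 0.130).

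AEN (ENSG00000181026.15, chr15:88621337-88632281, plus strand) encodes a nuclease that cuts DNA in apoptosis. Its level was 61.7, 58.8 and 65.5 CPM in H1047R insulin cells, 57.6, 63.6 and 57.8 CPM in H1047R vehicle cells, 63.2, 57.0 and 63.6 CPM in empty-vector insulin cells, 52.1, 51.4 and 53.6 CPM in empty-vector vehicle cells and 31.0, 35.5 and 31.1 CPM in non-targeting cells. Both vehicle and insulin libraries with siRSAD2 exceeded all non-targeting libraries. AEN rose by 0.69 ± 0.066 with siRSAD2 (adjusted p 3.16e-09) and by 0.22 ± 0.064 with insulin in empty-vector cells (adjusted p 0.0302), and the insulin call was lost without empty-vector insulin replicate 1 or 3 or empty-vector vehicle replicate 1, 2 or 3 (adjusted p 0.0626 to 0.134). TNFRSF10B (ENSG00000120889.13, chr8:23020133-23069031, minus strand) encodes the death receptor DR5 for TRAIL. The libraries held 233, 241 and 241 CPM in H1047R insulin cells, 239, 238 and 234 CPM in H1047R vehicle cells, 251, 244 and 247 CPM in empty-vector insulin cells, 223, 213 and 214 CPM in empty-vector vehicle cells and 159, 163 and 166 CPM in non-targeting cells. Its groups were tight, and empty-vector insulin cells were the highest. TNFRSF10B rose by 0.41 ± 0.042 with siRSAD2 (adjusted p 8.65e-09) and by 0.19 ± 0.041 with insulin in empty-vector cells (adjusted p 0.00317), and the insulin call was lost with only the compared groups fitted (adjusted p 0.104). PHLDA3 (ENSG00000174307.7, chr1:201464278-201469237, minus strand) encodes a protein that competes with AKT for membrane lipids and so restrains it. Its level was 17.3, 15.1 and 16.3 CPM in H1047R insulin cells, 12.8, 13.8 and 11.8 CPM in H1047R vehicle cells, 18.1, 14.4 and 15.1 CPM in empty-vector insulin cells, 9.75, 10.9 and 11.8 CPM in empty-vector vehicle cells and 8.97, 7.91 and 7.90 CPM in non-targeting cells. Insulin and vehicle did not overlap in either background. PHLDA3 rose by 0.55 ± 0.10 with insulin in empty-vector cells (adjusted p 6.23e-04) and by 0.39 ± 0.11 with siRSAD2 (adjusted p 0.00929), and the siRSAD2 call was lost without empty-vector vehicle replicate 3 or non-targeting replicate 5 (adjusted p 0.0503 to 0.0755).

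Of the remaining death genes, FAS, the receptor of the FAS ligand, rose with siRSAD2 (0.77 ± 0.084, adjusted p 4.49e-08) and with insulin in empty-vector cells (0.43 ± 0.080, adjusted p 6.59e-04). It had 37.6 to 44.4 CPM in empty-vector insulin cells, 27.9 to 32.7 CPM in empty-vector vehicle cells and 16.3 to 20.9 CPM in non-targeting cells. The 3 genes of the mitochondrial route to apoptosis, BBC3 and PMAIP1 (BH3-only proteins) and BAX (a pore former), rose with siRSAD2 by 0.79 ± 0.13, 0.39 ± 0.070 and 0.31 ± 0.053 (adjusted p 4.49e-05, 1.02e-04 and 7.07e-05). With insulin in empty-vector cells these 3 did not pass, at 0.24, -0.03 and 0.02. TRIAP1, which holds back apoptosis, rose with insulin in empty-vector cells (0.30 ± 0.066, adjusted p 0.00402), and its siRSAD2 difference of 0.15 ± 0.066 did not pass (adjusted p 0.121). SPATA18 (ENSG00000163071.11, chr4:52051304-52097299, plus strand), a gene of mitochondrial quality control, was counted 12, 12 and 16 times in H1047R insulin cells, 4, 7 and 4 times in H1047R vehicle cells, 11, 20 and 4 times in empty-vector insulin cells, 11, 6 and 8 times in empty-vector vehicle cells and 1 time in each non-targeting library. Every siRSAD2 library had more counts than every non-targeting library. Relative to library size empty-vector vehicle cells had 8.12 times as many as non-targeting cells (95% exact interval 2.48 to 42.0 from the pooled counts, covering counting error only), and SPATA18 passed with siRSAD2 (adjusted p 0.00681).

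Of 5 genes of DNA repair and nucleotide supply, 3 rose with siRSAD2 (median 0.16) and 3 rose with insulin in empty-vector cells (median 0.18). RRM2B (ENSG00000048392.12, chr8:102204502-102238961, minus strand) encodes a ribonucleotide reductase subunit. The libraries held 123, 132 and 125 CPM in H1047R insulin cells, 110.2, 108 and 111 CPM in H1047R vehicle cells, 123, 143 and 134 CPM in empty-vector insulin cells, 104, 99.1 and 102 CPM in empty-vector vehicle cells and 82.2, 86.1 and 79.4 CPM in non-targeting cells. Insulin libraries exceeded vehicle libraries in both backgrounds, and non-targeting libraries were lowest. RRM2B rose by 0.39 ± 0.053 with insulin in empty-vector cells (adjusted p 5.52e-06). Its rise was 0.30 ± 0.053 with siRSAD2 (adjusted p 1.08e-04) and 0.21 ± 0.053 with insulin in H1047R cells (adjusted p 0.0222), where the call was lost without H1047R insulin replicate 2 or 3 or H1047R vehicle replicate 1, 2 or 3 (adjusted p 0.0530 to 0.120). XPC and DDB2, which recognise DNA damage in nucleotide excision repair, rose with siRSAD2 by 0.24 ± 0.064 (adjusted p 0.00733) and 0.16 ± 0.054 (adjusted p 0.0322). The DDB2 call was lost without empty-vector vehicle replicate 2 or 3 or non-targeting replicate 4, 5 or 6 (adjusted p 0.0575 to 0.129). DDB2 also rose with insulin in empty-vector cells (0.20 ± 0.054, adjusted p 0.0184), a call lost without empty-vector insulin replicate 1 or empty-vector vehicle replicate 1 (adjusted p 0.0785 to 0.102). ASCC3, a helicase of alkylation repair, rose with insulin in empty-vector cells (0.18 ± 0.051, adjusted p 0.0291), a call lost without empty-vector insulin replicate 1 or empty-vector vehicle replicate 2 or 3 (adjusted p 0.0673 to 0.277). XPC did not pass there (0.13 ± 0.064, adjusted p 0.260), and it rose without empty-vector insulin replicate 3 (adjusted p 0.0250) or with a term for the forward-strand share (adjusted p 0.0176). POLH, a polymerase that copies past ultraviolet damage, lay at 101 to 122 CPM and did not pass in edgeR in any comparison with the filter used here. For insulin in empty-vector cells POLH differed by 0.15 ± 0.049 (edgeR adjusted p 0.0614), and it was called with the filterByExpr filter of edgeR (adjusted p 0.0352) and by DESeq2 (adjusted p 0.0198).

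All 6 genes of metabolism and redox balance rose with siRSAD2, 5 rose with insulin in empty-vector cells and 4 in H1047R cells. TP53I3 (ENSG00000115129.14, chr2:24077433-24085861, minus strand) encodes a quinone oxidoreductase. Its level was 80.0, 88.2 and 85.5 CPM in H1047R insulin cells, 65.2, 69.6 and 61.0 CPM in H1047R vehicle cells, 87.5, 83.9 and 89.9 CPM in empty-vector insulin cells, 58.7, 62.0 and 61.6 CPM in empty-vector vehicle cells and 34.3, 37.8 and 36.9 CPM in non-targeting cells. The groups formed 3 separate levels, with non-targeting cells lowest, both vehicle groups in the middle and both insulin groups highest. TP53I3 rose by 0.74 ± 0.060 with siRSAD2 (adjusted p 8.21e-11). The rise was 0.52 ± 0.058 with insulin in empty-vector cells (adjusted p 1.99e-07) and 0.37 ± 0.057 in H1047R cells (adjusted p 8.37e-05). SESN1 (ENSG00000080546.13, chr6:108984309-109094846, minus strand) encodes a sestrin that restrains the kinase complex mTORC1. The libraries held 36.0, 36.2 and 36.7 CPM in H1047R insulin cells, 28.9, 32.3 and 28.3 CPM in H1047R vehicle cells, 41.3, 39.3 and 38.9 CPM in empty-vector insulin cells, 29.6, 28.8 and 30.6 CPM in empty-vector vehicle cells and 19.9, 17.4 and 17.5 CPM in non-targeting cells. Insulin libraries again lay above vehicle libraries in each background. SESN1 rose by 0.70 ± 0.071 with siRSAD2 (adjusted p 1.07e-08). Its rise was 0.43 ± 0.068 with insulin in empty-vector cells (adjusted p 8.30e-05) and 0.28 ± 0.068 in H1047R cells (adjusted p 0.0197), the last call being lost without H1047R insulin replicate 1, 2 or 3 or H1047R vehicle replicate 1 or 3 (adjusted p 0.0572 to 0.137).

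FDXR (ENSG00000161513.12, chr17:74862497-74873031, minus strand) encodes the mitochondrial ferredoxin reductase. Its level was 40.05, 41.4 and 37.4 CPM in H1047R insulin cells, 37.1, 35.03 and 34.2 CPM in H1047R vehicle cells, 45.8, 37.0 and 43.2 CPM in empty-vector insulin cells, 29.5, 31.4 and 31.3 CPM in empty-vector vehicle cells and 20.1, 21.3 and 23.9 CPM in non-targeting cells. Each siRSAD2 library exceeded every non-targeting library. FDXR rose by 0.50 ± 0.078 with siRSAD2 (adjusted p 1.64e-05) and by 0.45 ± 0.075 with insulin in empty-vector cells (adjusted p 1.64e-04), and its difference with insulin in H1047R cells was 0.16 ± 0.075 without passing. CMBL (ENSG00000164237.9, chr5:10275875-10307902, minus strand) encodes a hydrolase of the cytosol. The libraries held 107, 105 and 111 CPM in H1047R insulin cells, 88.5, 96.4 and 90.5 CPM in H1047R vehicle cells, 110.0, 115 and 106 CPM in empty-vector insulin cells, 90.8, 92.0 and 90.2 CPM in empty-vector vehicle cells and 75.01, 79.1 and 77.7 CPM in non-targeting cells. The insulin groups stood above the vehicle groups in both backgrounds. CMBL rose by 0.28 ± 0.050 with insulin in empty-vector cells (adjusted p 3.72e-04). The rise was 0.24 ± 0.050 with siRSAD2 (adjusted p 7.49e-04) and 0.23 ± 0.050 with insulin in H1047R cells (adjusted p 0.00486), where the call was lost without H1047R insulin replicate 3 or H1047R vehicle replicate 1 (adjusted p 0.0649 to 0.0656).

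TIGAR (ENSG00000078237.7, chr12:4307763-4360028, plus strand) encodes a phosphatase that slows glycolysis. Its level was 15.9, 17.2 and 15.4 CPM in H1047R insulin cells, 10.9, 10.9 and 13.2 CPM in H1047R vehicle cells, 12.6, 14.4 and 18.3 CPM in empty-vector insulin cells, 11.4, 11.0 and 8.44 CPM in empty-vector vehicle cells and 7.19, 8.88 and 6.22 CPM in non-targeting cells. Insulin and vehicle did not overlap in either background, whereas empty-vector vehicle replicate 3 fell among the non-targeting libraries. TIGAR rose with insulin in H1047R cells (0.48 ± 0.13, adjusted p 0.0375), a call lost without H1047R insulin replicate 1, 2 or 3 or H1047R vehicle replicate 1 or 2 (adjusted p 0.0925 to 0.200). It rose with insulin in empty-vector cells (0.54 ± 0.13, adjusted p 0.00932), lost without empty-vector insulin replicate 3 or empty-vector vehicle replicate 3 (adjusted p 0.0867 to 0.0945). Without both of these libraries the difference was 0.27 and did not pass (adjusted p 0.333). TIGAR also rose with siRSAD2 (0.46 ± 0.14, adjusted p 0.0155), a call lost without empty-vector vehicle replicate 1 or non-targeting replicate 4 or 6 (adjusted p 0.0613 to 0.0935). SESN2, another sestrin, rose with siRSAD2 (0.65 ± 0.14, adjusted p 9.40e-04), and its insulin differences of 0.30 ± 0.13 in empty-vector cells and 0.41 ± 0.13 in H1047R cells did not pass. The difference in H1047R cells passed with only the compared groups fitted (adjusted p 0.0212).

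Both secreted factors on the list rose with siRSAD2 and with insulin in both backgrounds. GDF15 (ENSG00000130513.6, chr19:18374731-18389176, plus strand) encodes a stress-induced cytokine of the TGF-beta family. The libraries held 30.6, 28.2 and 27.3 CPM in H1047R insulin cells, 20.5, 22.6 and 18.8 CPM in H1047R vehicle cells, 30.2, 26.6 and 27.9 CPM in empty-vector insulin cells, 20.7, 21.6 and 19.1 CPM in empty-vector vehicle cells and 6.72, 7.87 and 5.58 CPM in non-targeting cells. Non-targeting libraries were the lowest by far, and the insulin libraries of both backgrounds exceeded the vehicle libraries. GDF15 rose by 1.59 ± 0.10 with siRSAD2 (adjusted p 6.19e-13). Its rise was 0.47 ± 0.089 with insulin in empty-vector cells (adjusted p 8.84e-04) and 0.46 ± 0.089 in H1047R cells (adjusted p 0.00153). KITLG (ENSG00000049130.16, chr12:88492793-88580851, minus strand) encodes the ligand of the receptor KIT. Its level was 102, 103 and 100.2 CPM in H1047R insulin cells, 84.4, 91.8 and 91.2 CPM in H1047R vehicle cells, 99.4, 97.9 and 99.1 CPM in empty-vector insulin cells, 93.3, 82.9 and 84.7 CPM in empty-vector vehicle cells and 71.5, 71.3 and 70.8 CPM in non-targeting cells. Its differences were small but the insulin and vehicle libraries did not overlap. KITLG rose by 0.29 ± 0.052 with siRSAD2 (adjusted p 1.02e-04). The rise was 0.18 ± 0.051 with insulin in empty-vector cells (adjusted p 0.0278) and 0.19 ± 0.051 in H1047R cells (adjusted p 0.0433). The KITLG insulin calls were lost without empty-vector insulin replicate 3 or empty-vector vehicle replicate 2 or 3 (adjusted p 0.0876 to 0.183) in empty-vector cells and without H1047R insulin replicate 1, 2 or 3 or H1047R vehicle replicate 1, 2 or 3 (adjusted p 0.0670 to 0.337) in H1047R cells. PLXNB2, a semaphorin receptor, lay at 241 to 329.5 CPM and did not pass in any comparison, although without empty-vector insulin replicate 1 it fell with insulin in empty-vector cells (adjusted p 0.0318).

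The last 3 members act on RNA or protein. ZMAT3 (ENSG00000172667.11, chr3:178960121-179072215, minus strand), an RNA-binding protein that alters splicing, rose with siRSAD2 (0.48 ± 0.062, adjusted p 8.15e-07) and with insulin in empty-vector cells (0.32 ± 0.061, adjusted p 8.59e-04). It had 88.9 to 90.4 CPM in empty-vector insulin cells, 66.1 to 79.4 CPM in empty-vector vehicle cells and 50.2 to 54.2 CPM in non-targeting cells, without overlap. FBXO22, a substrate receptor of an SCF ubiquitin ligase, rose with insulin in empty-vector cells (0.26 ± 0.060, adjusted p 0.00776), a call lost without empty-vector vehicle replicate 1 (adjusted p 0.0513). With siRSAD2 FBXO22 differed by 0.17 ± 0.061 and did not pass (adjusted p 0.0534), and it passed without non-targeting replicate 5 (adjusted p 0.0445) or empty-vector vehicle replicate 1 (adjusted p 0.0184). It also passed with RLE scaling, filterByExpr or no filter, the compared groups alone, the forward-strand term and DESeq2 (adjusted p 0.0337 to 0.0473). RPS27L, a close paralog of the ribosomal protein gene RPS27, which makes its counts less certain, lay at 159 to 190.5 CPM and did not pass in edgeR in any comparison of all libraries. It fell with siRSAD2 when non-targeting replicate 4 was left out (adjusted p 0.0484), and DESeq2 called it higher with insulin in empty-vector cells (adjusted p 0.0394).

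Members with and without a match to the response element were compared as a description. With siRSAD2, 17 of the 18 members with a match rose and 1 fell (median 0.48 on the log2 scale), and 11 of the 21 without a match rose (median 0.29). With insulin in empty-vector cells 13 of the 18 rose and 1 fell (median 0.25), and 12 of the 21 without a match rose (median 0.26). With insulin in H1047R cells 6 of 18 with a match rose and 1 fell, and 4 of 21 without a match rose. Over all genes tested, 9.82% rose and 9.72% fell with siRSAD2. With insulin 2.1% rose and 4.19% fell in empty-vector cells, and 0.483% rose and 1.99% fell in H1047R cells. Whether genes outside the list differ by a match was not tested. PLK2, which fell with insulin, and CCNG1, which fell with siRSAD2, both had a match.

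The members were then set beside other genes of the pathway. Of 51 further p53 targets with enough counts, 26 rose and 1 fell with siRSAD2 (median 0.28), where 9.82% of all genes rose and 9.72% fell. SFN, which encodes the 14-3-3 sigma protein, rose by 0.91 ± 0.11, SUSD6 by 0.60 ± 0.076 and the ephrin gene EFNB1 by 0.46 ± 0.059, whereas CPEB4, a regulator of poly(A) tails, fell by 0.74 ± 0.068 (adjusted p 1.13e-09). With insulin in empty-vector cells 9 of these 51 rose and 3 fell (median 0.09), where 2.1% of all genes rose and 4.19% fell. TRIM22 (0.57 ± 0.10), TNFRSF10D (0.34 ± 0.070) and the chaperone gene HSPA4L (0.45 ± 0.075) were among those that rose, and BTG1 (-0.30 ± 0.062), a relative of BTG2, EPHA2 (-0.22 ± 0.065) and DRAM1 (-0.19 ± 0.056) were those that fell. In H1047R cells SFN (0.49 ± 0.10) and HSPA4L (0.36 ± 0.075) rose with insulin and the other 49 did not pass, where 0.483% of all genes rose. With H1047R the stress factor gene ATF3 was higher in vehicle (0.56 ± 0.091) and in insulin (0.54 ± 0.093), and TNFRSF10D, a decoy receptor like TNFRSF10C, was lower in insulin (-0.31 ± 0.071). Of all genes, 0.621% rose with H1047R in vehicle, and 0.22% rose and 0.0647% fell in insulin.

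Among 28 genes of the p53 family and its upstream regulators, 1 rose and 12 fell with siRSAD2 (median -0.13). Of all genes, 9.82% rose and 9.72% fell. RPL5 (-0.37 ± 0.041), whose protein binds MDM2, the kinase gene HIPK2 (-0.34 ± 0.057) and RPS27A (-1.05 ± 0.071), which encodes ubiquitin fused to a ribosomal protein, were lower, and PPP1R13B, which encodes the p53 cofactor ASPP1, was higher (0.28 ± 0.061). Ribosomal protein genes have many near-identical copies in the genome, so their counts are less certain. With insulin in empty-vector cells 2 of the 28 (7.14%) fell, where 4.19% of all genes did, the p53 inhibitor gene PPP1R13L (-0.41 ± 0.081) and CDKN2A (-0.27 ± 0.059), whose ARF product inhibits MDM2. With H1047R in vehicle RPL26 (0.75 ± 0.13) and RPS27A (0.36 ± 0.071) rose, 2 of the 28 (7.14%), where 0.621% of all genes rose. With a term for the forward-strand share, 2 of all 23184 genes rose and 1 fell in this comparison.

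Genes repressed through the DREAM complex moved opposite to the members with siRSAD2. Of 36 such cell cycle genes 27 fell and 9 did not pass (median -0.25), where 9.82% of all genes rose and 9.72% fell. They summed to 9674 to 9880 CPM in empty-vector vehicle cells against 11348 to 11579 CPM in non-targeting cells. CCNA2, the cyclin of S phase, fell by 0.43 ± 0.045, the mitotic kinase gene BUB1 by 0.40 ± 0.046, the kinesin gene KIF20A by 0.38 ± 0.043 and CCNB1, the mitotic cyclin, by 0.38 ± 0.044 (largest adjusted p of the 4, 1.09e-07). Of 14 genes for the DREAM complex and its activating partners, MYBL2 (-0.35 ± 0.046), LIN9 (-0.32 ± 0.075) and FOXM1 (-0.14 ± 0.046) fell and E2F4 (0.24 ± 0.070) and TFDP1 (0.15 ± 0.043) rose. With insulin in empty-vector cells CCNB1 (0.21 ± 0.044) and BUB1 (0.16 ± 0.046) rose and MCM5 (-0.17 ± 0.052) fell among the 36. There 2.1% of all genes rose and 4.19% fell. With H1047R in vehicle PRC1 rose (1.00 ± 0.23) and PLK1 fell (-0.20 ± 0.049) among the 36, where 0.621% of all genes rose and 0.742% fell.

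**Figure D4:**
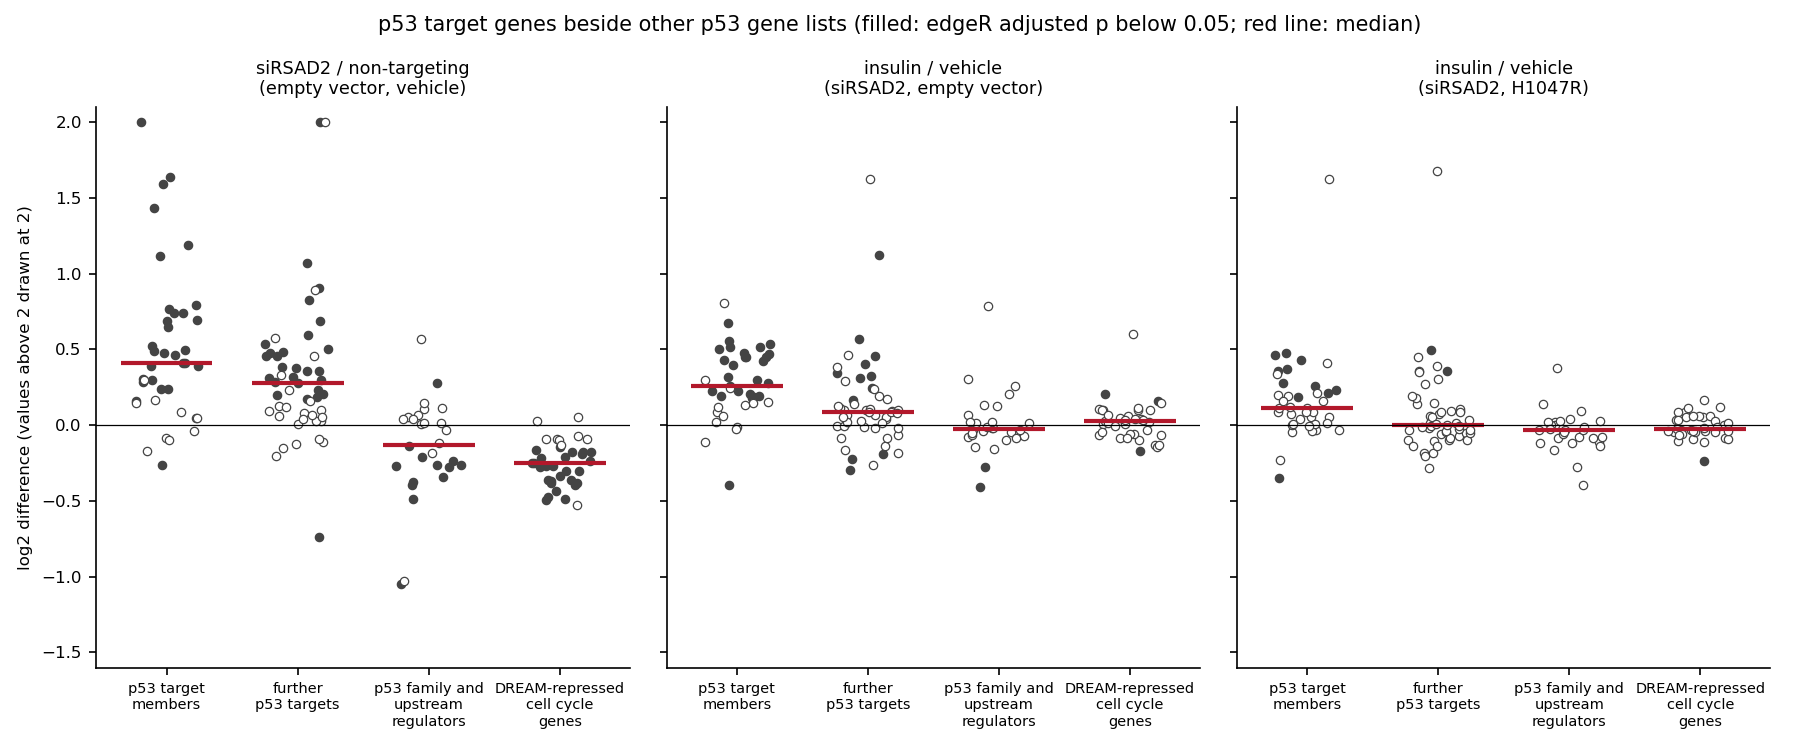
Log2 differences of the measured p53 target members (39 genes), further p53 targets (51), p53 family and upstream regulators (28) and DREAM-repressed cell cycle genes (36) with siRSAD2 and with insulin in both backgrounds, filled where the edgeR adjusted p is below 0.05, with the median in red and values above 2 drawn at 2. With siRSAD2 the medians are 0.41, 0.28, -0.13 and -0.25, and with insulin only the members have a median above 0.1 in both backgrounds (0.26 and 0.11).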

How the data were processed

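RNA-seq counts of 15 libraries of 12Z cells were analysed, 3 in each of 5 groups taken from the sample labels. Per the submitters' processing notes, the authors used Trim Galore with cutadapt for trimming, FastQC for quality control and STAR for alignment to hg38. The raw gene counts of STAR were deposited without normalisation. Tool versions are not given in the sources used here, and the annotation is named with a mouse release number. The reverse-stranded counts were used, and the forward-strand counts served only for a share. Summary entries that name no gene (22.2 to 30.5% of pairs) were left out of library sizes. Depth was 16.1 to 39.7 M gene counts, so a member near the filter rests on few counts per library.

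Symbols and hg38 coordinates came from GENCODE 44 (60357 of 60617 identifiers matched). Genes with a mean of 1 count or more per library (23184) were fitted together over all 15 libraries with the quasi-likelihood test of edgeR 4.0.16 (R 4.3.3, limma 3.58.1) with TMM scaling and 10 residual degrees of freedom. Benjamini-Hochberg adjusted p values cover all genes tested and the threshold was 0.05. Differences are log2, tested condition over its reference, and the SE is the difference divided by the square root of F. CPM were computed on TMM-scaled library sizes. Exact 95% intervals of pooled counts (scipy 1.17.1) cover counting error only. The script was tested on simulated data. Tables and plots used Python 3.11.15, pandas 2.3.3 and matplotlib 3.10.9.

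Values in every library are given for MDM2, CDKN1A and, in each comparison, up to 10 members in each direction by adjusted p. From each other list up to 3 genes in each direction with the smallest p are named, with CCNA2 always, and a few more were named after their values were seen. Some genes that this rule names are not reported here. The members and lists were chosen with earlier results of these data known. Alternatives were DESeq2 1.42.0, RLE scaling, another or no filter on low counts, an adjusted p of 0.001, unstranded counts, fits of only the compared groups, a replicate block and each library left out. A term for the forward-strand share, a fit within the class above 6% and leaving out empty-vector vehicle and insulin replicate 3 were chosen after seeing the data.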

Additional observations from a re-analysis of the deposited data

How the results depend on the processing

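No member that passed changed direction under any alternative. Members that kept passing under all alternatives numbered 24 of 29 for siRSAD2, 14 of 26 and 4 of 11 for insulin in empty-vector and H1047R cells, and 0 of 2 for H1047R in vehicle. These are the members that passed at an adjusted p of 0.001, which is among the alternatives. With each library left out in turn, 26, 18, 5 and 0 always passed. At an adjusted p of 0.001 the counts that rose were 13 for insulin in empty-vector cells, 3 for insulin in H1047R cells and 0 for H1047R in vehicle. Of all genes, 0.233%, 0.0863% and 0.0431% rose at that threshold. With only the compared groups fitted, insulin raised 15 members in empty-vector cells. For H1047R in vehicle the count that rose was 1 with RLE scaling, 1 with unstranded counts, 1 with the replicate block, 0 with the forward-strand term and 0 without empty-vector vehicle and insulin replicate 3. Without those 2 libraries 2 members fell with H1047R in insulin, where 267 of 22943 genes fell. In that fit H1047R and the difference in forward-strand share cannot be told apart. Without the filter on low counts 2 members passed the interaction test, where 62 of 34757 genes were higher and 19 lower. The cause of these changes was not tested. Leaving out 1 library at a time, 26 to 28 members rose and 1 to 2 fell with siRSAD2, 19 to 24 rose and 1 to 2 fell with insulin in empty-vector cells, 4 to 7 rose with insulin in H1047R cells and 0 to 2 rose with H1047R in vehicle. In the same order, the shares of all genes that rose were 7.07 to 9.8%, 1.04 to 2.93%, 0.211 to 0.339% and 0.185 to 0.438%. Over all pairs of siRSAD2 groups, the deviations of same-numbered samples correlated at -0.127 to 0.156, against -0.147 to 0.130 for other pairs. In the pair of insulin groups the 3 same-numbered pairs were all positive (0.0871 to 0.156) and the other 6 negative (-0.147 to -0.0043), a hint from the data that the other pairs of groups do not show. The numbers were therefore not taken to pair the samples, and the replicate block, under which insulin raised 22 members in empty-vector cells and 9 in H1047R cells, is given only here. With 3 libraries per group, differences of members at a few CPM are the least certain.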
